A study of Mus musculus with 8 samples.

Results

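The genes described here encode the enzymes of glycolysis, the glucose and lactate transporters at the cell surface, and the kinases that control the entry of pyruvate into the mitochondrion. They are 31 of the 50600 genes in the count table, chosen by symbol from what they encode. All 31 passed the filter of 10 or more counts in 2 or more of the 8 libraries, as did 14497 genes in all. The RNA came from NF1-MET cells, a mouse line isolated from a malignant peripheral nerve sheath tumor (MPNST), and from NF1-MET;sgP53 cells (called sgP53 here), derived from it by a lentiviral CRISPR guide that targets *Trp53*. Either line received DMSO (vehicle) or 100 nM capmatinib, a MET kinase inhibitor, for 24 h, with 2 replicate libraries in each of 4 groups. The labels give the genotype of the NF1-MET libraries as WT and that of the others as the *Trp53* knockout. Loss of *Nf1*, amplification of *Met* and a deletion of *Cdkn2a* that arose by itself were common to all 4 groups. The tumor arose in a mouse with Nf1 fl/ko alleles, a lox-stop-lox MET transgene and Plp-creERT, a tamoxifen-inducible Cre driven by the *Plp* promoter of Schwann cells, and it had wild-type *Trp53*. Each genotype was represented by 1 line. The column names of the NF1-MET libraries contain the letters EV, and the sources do not say whether these cells carried the empty vector, so vector and clonal differences cannot be told apart from the loss of p53. The labels call the replicates biological and the cells were treated in duplicate on multi-well plates, so p-values measure the spread between such duplicates.

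Glycolysis splits glucose into pyruvate in the cytosol. Glucose enters through SLC2A transporters, is trapped by hexokinase, committed by phosphofructokinase and split by aldolase, and the lower enzymes from GAPDH to pyruvate kinase recover ATP. Pyruvate is then reduced to lactate by lactate dehydrogenase and exported by monocarboxylate transporters, or oxidised by the pyruvate dehydrogenase complex, which the pyruvate dehydrogenase kinases switch off by phosphorylation. Many tumor cells send most of their pyruvate to lactate, and growth factor receptors, MYC and the hypoxia-inducible factors are known to raise the transcription of several of these genes.

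The libraries held 30.1 to 42.8 M counts each. Levels are given as CPM (counts in each 1 M of a library), scaled with edgeR's TMM factors over the 8 libraries. *Trp53* transcript lay between 126 and 193 CPM in the 4 NF1-MET libraries and between 68.0 and 100.1 CPM in the 4 sgP53 libraries. Of 13 Schwann and neural crest markers only 8 passed the filter. *Sox10* and *S100b*, which define Schwann cells, were below 0.5 CPM in all 8 libraries, whereas *Nes*, *Twist1* and *Tfap2a* were expressed. Among 11 markers of other cell types only *Cd68* passed the filter, at no more than 1.93 CPM. The share of counts on *Gm42418*, which overlaps a ribosomal RNA gene, ran from 1.11% to 13.1% between libraries and differed between replicates, with 10.0% and 1.11% in sgP53 with capmatinib. In bulk RNA, fewer cells expressing a gene and less of its RNA per cell cannot be told apart.

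In both lines the monocarboxylate transporter gene *Slc16a1* fell the most with capmatinib, and *Pkm*, *Gapdh*, *Eno1*, *Pgam1* and *Ldha* of the lower pathway fell by less. The pyruvate dehydrogenase kinases, the phosphofructokinase subunits, *Bpgm*, *Eno3* and the minor lactate dehydrogenase *Ldhb* rose. A gene was called when its adjusted p in edgeR's quasi-likelihood test was under 0.05 (Benjamini-Hochberg, over every gene tested). In NF1-MET, 14 of the 31 genes were higher with capmatinib, 12 were lower and 5 were not called (83.9% called), against 70.2% of all genes tested, 35.5% higher and 34.7% lower. In sgP53, 17 were higher, 8 lower and 6 not called (80.6% called), against 67.6% of all genes, 34.2% higher and 33.4% lower. The shares of pathway genes called therefore lay only a little above the background. The share of all genes whose groups of 2 libraries did not overlap was not computed, so lack of overlap below only describes the genes named. A change of at least 2-fold was called for 3 rises and 2 falls in NF1-MET (16.1%, against 16.8% of all genes) and for 3 rises and 1 fall in sgP53 (12.9%, against 15.4%), which was near or below the background. The median log2 fold change of the 31 genes was 0.06 for NF1-MET and 0.12 for sgP53 cells, and 0.00 over all genes.

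Between the lines, 13 genes were called higher with capmatinib in both and 8 lower in both. *Hk1* was called lower in NF1-MET and higher in sgP53. Another 3 were higher in sgP53 only (*Hk2*, *Aldoa* and *Aldoc*), 1 was higher in NF1-MET only (*Pfkfb2*) and 3 were lower in NF1-MET only (*Slc2a1*, *Tpi1* and *Pgk1*), while *Pfkfb3* and *Pfkfb4* were called in neither. With library totals without *Gm42418*, *Slc2a1* (-0.14), *Tpi1* (-0.14) and *Pgk1* (-0.15) were called lower in sgP53 too. A call in 1 line alone is not a difference between lines, and the test of that difference is given with the interaction. Summed over the 31 genes, the level was 8478 and 8427 CPM in vehicle-treated NF1-MET, 7293 and 7257 CPM in capmatinib-treated NF1-MET, 8413 and 8369 CPM in vehicle-treated sgP53, and 7886 and 7922 CPM in capmatinib-treated sgP53. The vehicle sums of both lines lay above all 4 capmatinib sums, and among the capmatinib libraries both NF1-MET sums lay below both sgP53 sums. These sums are weighted to the most abundant genes. *Pkm* alone went from 2114 and 2089.9 CPM with vehicle to 1361 and 1367 CPM with capmatinib in NF1-MET. In sgP53 it went from 1887 and 1901 CPM to 1489 and 1483 CPM. A lower sum is not a fall of all 31 genes, of which 14 (NF1-MET) and 17 (sgP53) were called higher with capmatinib.

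**Figure D1:**
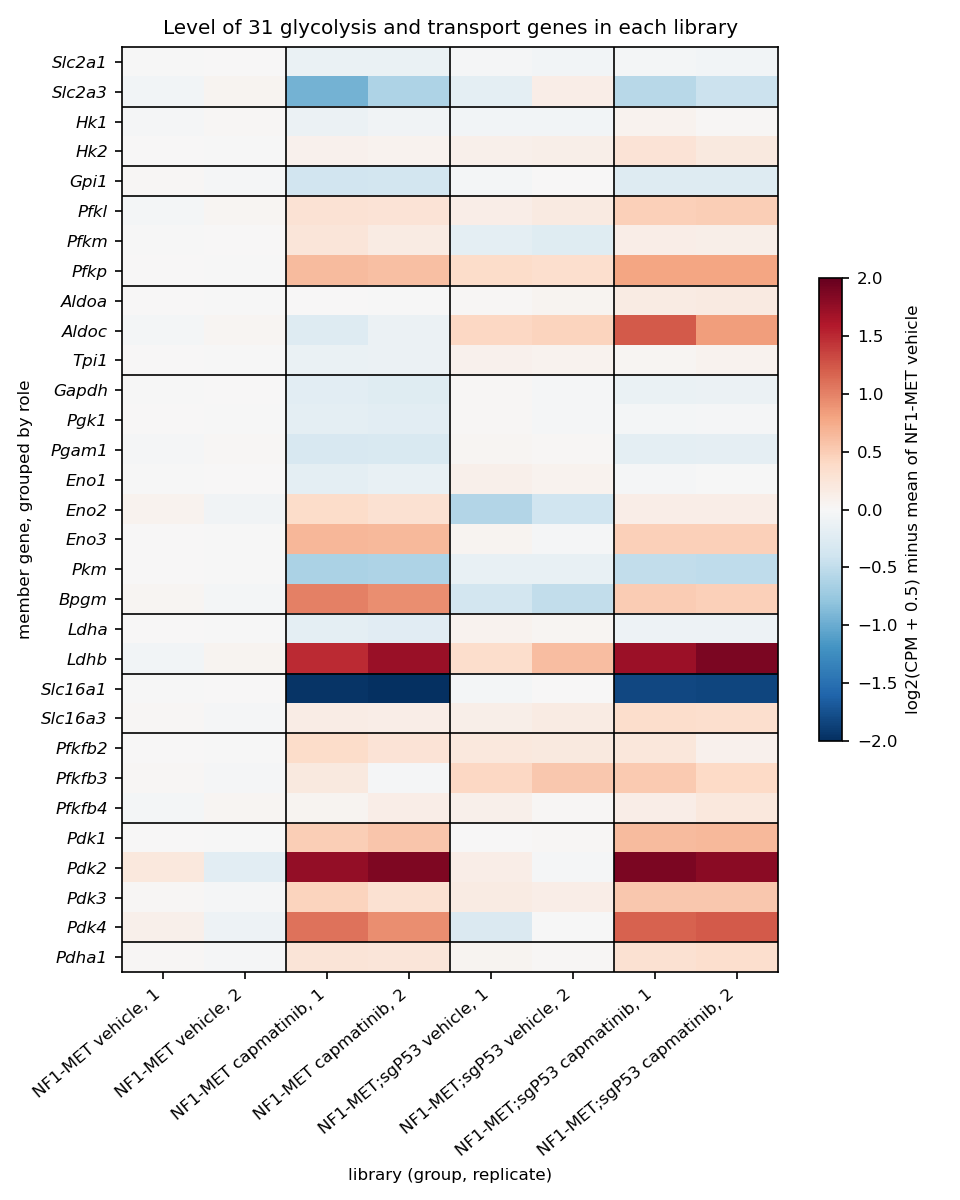
Heat map of the 31 genes (rows, grouped by role) in the 8 libraries (columns), as log2(CPM + 0.5) minus the mean of the 2 NF1-MET vehicle libraries. Dark blue marks *Slc16a1* in all 4 capmatinib libraries, and red marks *Ldhb*, *Pdk2*, *Pdk4* and *Bpgm* there, while most abundant enzymes stay near white.

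Promoters were taken from RefSeq (GRCm38.p6), as 250 bases before to 50 after each annotated start, and 30 of the 31 genes matched, with 46 promoters. They were searched on both strands for ACGTG, the letters at the core of the element bound by hypoxia-inducible factors, and for CACGTG, the E-box bound by MYC and its relatives, which contains ACGTG on both strands. ACGTG stood in 45.7% of the 46 promoters, from 17 genes, and in 19.6% of all 32851 promoters. CACGTG stood in 13.0% of the 46, from 6 genes, and in 7.15% of all. By gene, 21.8% of 27025 genes held ACGTG and 8.09% held CACGTG. Promoters were not matched for base composition, and some windows of the same gene overlap and share a match. A match is a description of these letters, not a bound site. The promoters of 4 genes with large changes or high levels are shown, with each match in capitals on the strand printed (CACGT is ACGTG read from the other strand). That of *Slc16a1*, the gene that fell most, holds 2 matches, 1 of them CACGTG. The *Ldha* promoter holds 3, of which 2 are CACGTG. *Pdk2*, which rose most in both lines, has 1 CACGTG, and *Bpgm*, which also rose, has none in this window. *Ldha* and *Pdk2* each have a second promoter in RefSeq, not shown, with 0 matches.
Slc16a1, chr3:104638414-104638713, plus strand: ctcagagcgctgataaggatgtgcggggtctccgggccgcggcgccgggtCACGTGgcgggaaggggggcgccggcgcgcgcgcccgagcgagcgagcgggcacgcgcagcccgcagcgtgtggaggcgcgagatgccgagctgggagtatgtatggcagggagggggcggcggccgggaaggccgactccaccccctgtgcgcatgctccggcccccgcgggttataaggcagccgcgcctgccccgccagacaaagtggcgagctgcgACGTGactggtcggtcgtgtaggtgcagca
Ldha, chr7:46845554-46845853, plus strand: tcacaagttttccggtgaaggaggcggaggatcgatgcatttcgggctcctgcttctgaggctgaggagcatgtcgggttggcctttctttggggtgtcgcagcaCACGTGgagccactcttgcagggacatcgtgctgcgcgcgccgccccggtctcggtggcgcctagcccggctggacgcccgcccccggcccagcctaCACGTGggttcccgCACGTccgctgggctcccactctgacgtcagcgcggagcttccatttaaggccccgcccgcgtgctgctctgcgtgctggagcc
Pdk2, chr11:95041322-95041621, minus strand: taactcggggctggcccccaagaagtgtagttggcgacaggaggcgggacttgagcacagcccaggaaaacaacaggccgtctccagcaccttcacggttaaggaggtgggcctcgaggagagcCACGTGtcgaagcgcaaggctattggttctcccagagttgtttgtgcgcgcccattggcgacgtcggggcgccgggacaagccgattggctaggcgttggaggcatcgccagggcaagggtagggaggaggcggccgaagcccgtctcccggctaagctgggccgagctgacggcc
Bpgm, chr6:34476106-34476405, plus strand: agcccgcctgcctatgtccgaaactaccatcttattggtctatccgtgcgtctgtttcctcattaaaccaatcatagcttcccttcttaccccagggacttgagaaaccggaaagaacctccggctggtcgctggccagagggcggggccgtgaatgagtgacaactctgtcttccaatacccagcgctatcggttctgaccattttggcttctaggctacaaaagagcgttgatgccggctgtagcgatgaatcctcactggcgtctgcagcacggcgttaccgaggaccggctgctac

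Lactate and pyruvate cross the cell membrane through the monocarboxylate transporters, of which *Slc16a1* encodes MCT1 and *Slc16a3* encodes MCT4. *Slc16a1* (ENSMUSG00000032902, mm10 chromosome 3, 104638668 to 104658462, 5 exons in its principal transcript) fell from 191 and 191 CPM with vehicle to 48.9 and 47.7 CPM with capmatinib in NF1-MET, and from 187 and 191 CPM to 53.99 and 52.8 CPM in sgP53. No capmatinib library came near a vehicle library, and the replicates were close together. The fall was 4.005-fold in NF1-MET (log2 fold change -2.002, SE 0.0314, edgeR adjusted p = 8.46e-32) and 3.54-fold in sgP53 (log2 fold change -1.82, SE 0.0362, edgeR adjusted p = 3.77e-21). *Slc16a3* was measured at 66.4 and 64.4 CPM in vehicle-treated NF1-MET, 72.2 and 71.4 CPM in capmatinib-treated NF1-MET, 70.8 and 73.4 CPM in vehicle-treated sgP53 and 83.2 and 82.4 CPM in capmatinib-treated sgP53. Its capmatinib libraries were above the vehicle libraries of the same line, with a small rise in NF1-MET (log2 fold change 0.12, adjusted p = 0.00393 in edgeR), which turned to -0.07 and was not called when counts were scaled to library totals. The rise in sgP53 had a log2 fold change of 0.20, adjusted p = 2.17e-05 in edgeR and missed the threshold at that scaling, at 0.08. Per kilobase of principal transcript, *Slc16a1* made up 73.8% and 74.4% of the summed level of these transporters in NF1-MET with vehicle and 39.9% and 39.6% with capmatinib. In sgP53 it made up 72.1% and 71.8% with vehicle and 38.9% and 38.6% with capmatinib. MCT4 transcript was thus the larger share in the capmatinib libraries, and MCT1 transcript in the vehicle libraries.

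**Figure D2:**
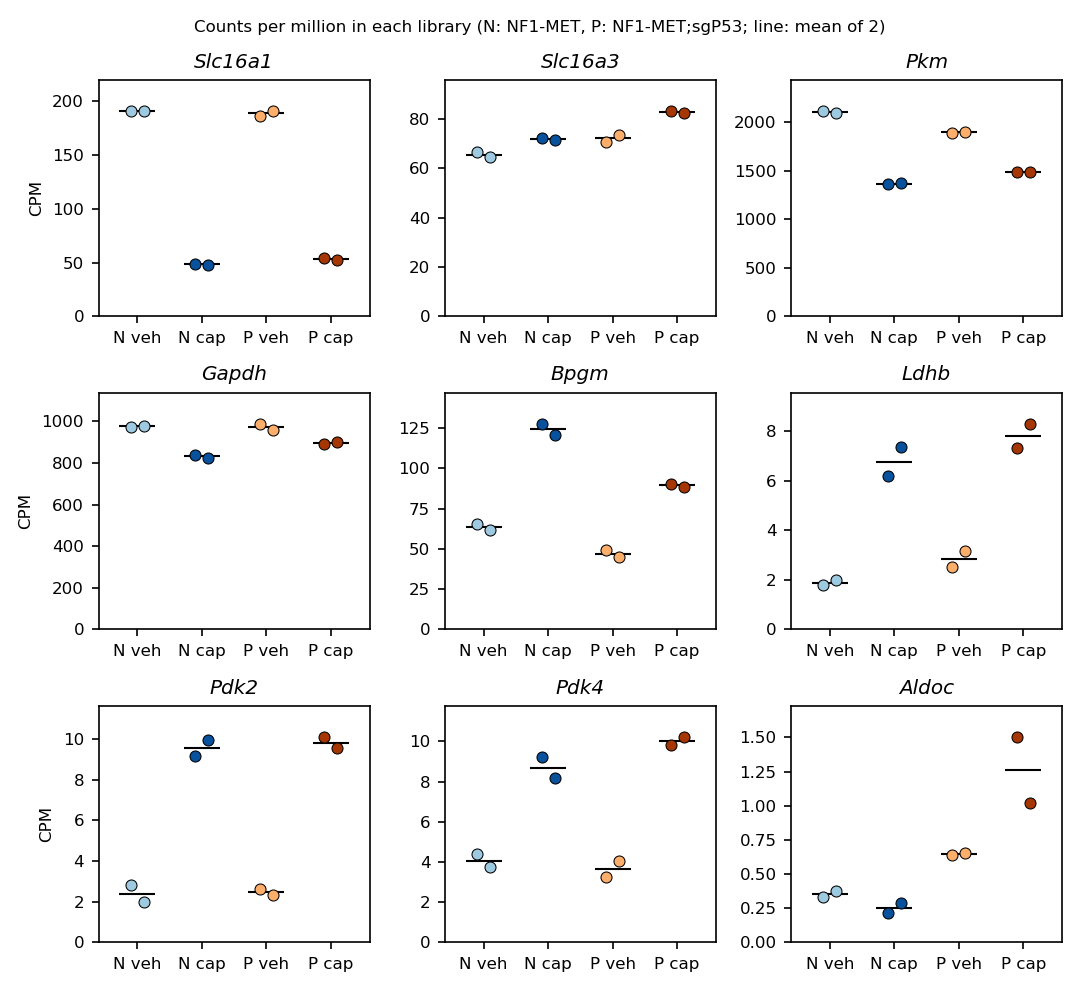
CPM (y axes, from 0) of 9 genes in each library, by line (N, NF1-MET; P, sgP53) and treatment, with points for the 2 replicates and a line for their mean. *Slc16a1* and *Pkm* are lower in every capmatinib library, *Ldhb*, *Pdk2*, *Pdk4* and *Bpgm* are higher, and *Aldoc* is below 1.6 CPM in every library.

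Of the glucose transporter genes of the set, *Slc2a1*, which encodes GLUT1, was by far the more abundant, at 126 and 126 CPM in vehicle-treated NF1-MET, 115 and 115 CPM in capmatinib-treated NF1-MET, 124 and 121 CPM in vehicle-treated sgP53 and 122 and 121 CPM in capmatinib-treated sgP53. It fell slightly in NF1-MET (log2 fold change -0.15, adjusted p = 2.30e-05 in edgeR), while in sgP53 the groups overlapped and no call was made. *Slc2a3*, encoding the high-affinity transporter GLUT3, was far less abundant, at 2.26 and 2.46 CPM in vehicle-treated NF1-MET, 0.976 and 1.35 CPM in capmatinib-treated NF1-MET, 2.01 and 2.62 CPM in vehicle-treated sgP53 and 1.45 and 1.63 CPM in capmatinib-treated sgP53, or 27 to 112 counts. It was lower with capmatinib in NF1-MET (log2 fold change -1.002, SE 0.218, edgeR adjusted p = 1.40e-04) and in sgP53 (log2 fold change -0.60, SE 0.212, edgeR adjusted p = 0.0159), without overlap of the groups. The sgP53 call was lost without vehicle replicate 2 (-0.38) or capmatinib replicate 1 (-0.52) of that line, and in DESeq2.

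Hexokinase traps glucose in the cell as glucose phosphate. *Hk1*, the most widely expressed form, was at 160.0 and 164 CPM in vehicle-treated NF1-MET, 149 and 154 CPM in capmatinib-treated NF1-MET, 156 and 156 CPM in vehicle-treated sgP53 and 171 and 166 CPM in capmatinib-treated sgP53. It was lower with capmatinib in NF1-MET (log2 fold change -0.11, adjusted p = 7.08e-04 in edgeR) and higher in sgP53 (0.11, adjusted p = 0.00447), although scaling to library totals gave -0.01 in sgP53. *Hk2*, the form often raised in tumors, was at 60.0 and 59.7 CPM in vehicle-treated NF1-MET, 63.9 and 62.8 CPM in capmatinib-treated NF1-MET, 64.4 and 65.1 CPM in vehicle-treated sgP53 and 72.6 and 68.5 CPM in capmatinib-treated sgP53. It was not called in NF1-MET and was higher in sgP53 (log2 fold change 0.12, adjusted p = 0.00455 in edgeR), where library totals gave -0.0023. Both sgP53 calls were lost without capmatinib replicate 1 of that line (*Hk1* 0.08, *Hk2* 0.08). *Gpi1*, which converts glucose phosphate to fructose phosphate, was at 428 and 416 CPM in vehicle-treated NF1-MET, 325 and 327 CPM in capmatinib-treated NF1-MET, 411 and 423 CPM in vehicle-treated sgP53 and 354 and 353 CPM in capmatinib-treated sgP53. The capmatinib libraries were below the vehicle libraries in both lines, by log2 fold changes of -0.39, adjusted p = 4.92e-16 in NF1-MET and -0.24, adjusted p = 1.57e-07 in sgP53 (edgeR).

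Phosphofructokinase commits sugar to glycolysis, and its 3 subunit genes were all higher with capmatinib in both lines. *Pfkl*, the liver type, rose from 147 and 154 CPM with vehicle to 184 and 181 CPM with capmatinib in NF1-MET, and from 165 and 170.3 CPM to 209.9 and 212 CPM in sgP53. *Pfkm*, the muscle type, rose from 46.8 and 47.7 CPM with vehicle to 56.2 and 53.1 CPM with capmatinib in NF1-MET, and from 41.0 and 40.05 CPM to 51.7 and 51.4 CPM in sgP53. *Pfkp*, the platelet type, rose from 33.9 and 33.1 CPM with vehicle to 52.0 and 51.3 CPM with capmatinib in NF1-MET, and from 43.5 and 42.4 CPM to 58.5 and 58.2 CPM in sgP53. The groups did not overlap for any of the 3 genes in either line, where 70.2% (NF1-MET) and 67.6% (sgP53) of all genes were called. The rise of *Pfkp* was the largest in NF1-MET (log2 fold change 0.61, SE 0.0445, edgeR adjusted p = 9.46e-14). In the other 5 cases the log2 fold change lay between 0.19 and 0.44. Scaled to library totals, *Pfkl* and *Pfkm* kept their direction but were not called in either line, whereas *Pfkp* was called in both. Exons of *Pfkp* and of *Pitrm1* on the opposite strand share 748 bases, *Pitrm1* held 38485 counts against 13439 for *Pfkp*, and the strand setting of the counting is not given in the sources used here.

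The PFKFB enzymes make and remove the bisphosphate that activates phosphofructokinase. *Pfkfb2* was at 3.72 and 3.66 CPM in vehicle-treated NF1-MET, 4.88 and 4.56 CPM in capmatinib-treated NF1-MET, 4.33 and 4.31 CPM in vehicle-treated sgP53 and 4.43 and 3.94 CPM in capmatinib-treated sgP53. *Pfkfb3* was at 6.53 and 6.34 CPM in vehicle-treated NF1-MET, 7.41 and 6.33 CPM in capmatinib-treated NF1-MET, 8.79 and 9.53 CPM in vehicle-treated sgP53 and 9.45 and 8.65 CPM in capmatinib-treated sgP53. *Pfkfb4* was at 4.79 and 5.04 CPM in vehicle-treated NF1-MET, 5.13 and 5.47 CPM in capmatinib-treated NF1-MET, 5.30 and 5.03 CPM in vehicle-treated sgP53 and 5.45 and 5.76 CPM in capmatinib-treated sgP53. All were thus below 10 CPM throughout, and the only capmatinib call among them was *Pfkfb2* in NF1-MET (log2 fold change 0.33, adjusted p = 0.0275 in edgeR), which was lost when any 1 of the 4 libraries was left out (0.29 to 0.39, adjusted p 0.0503 to 0.119), in DESeq2 and with library totals.

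Aldolase splits the fructose bisphosphate, and triose phosphate isomerase equalises the products. *Aldoa*, the form of muscle and most tumors, was at 936 and 935 CPM in vehicle-treated NF1-MET, 945 and 929 CPM in capmatinib-treated NF1-MET, 955 and 967 CPM in vehicle-treated sgP53 and 1044 and 1061 CPM in capmatinib-treated sgP53. It was not called in NF1-MET, where the groups overlapped, and was higher with capmatinib in sgP53 (log2 fold change 0.13, adjusted p = 2.72e-05 in edgeR). With library totals it was at -0.20 (called) in NF1-MET and 0.01 (not called) in sgP53, and the interaction was not called (0.21, adjusted p = 0.497 in edgeR). *Aldoc*, the brain form, had only 6 to 53 counts a library, or 0.331 and 0.376 CPM in vehicle-treated NF1-MET, 0.217 and 0.286 CPM in capmatinib-treated NF1-MET, 0.640 and 0.655 CPM in vehicle-treated sgP53 and 1.504 and 1.02 CPM in capmatinib-treated sgP53. Its capmatinib libraries in sgP53 were the highest of the 8 (log2 fold change 0.95, SE 0.314, edgeR adjusted p = 0.0105), but the call was lost without capmatinib replicate 1 (0.65) and in DESeq2. *Tpi1* was at 512 and 504 CPM in vehicle-treated NF1-MET, 464 and 466 CPM in capmatinib-treated NF1-MET, 536 and 533 CPM in vehicle-treated sgP53 and 522 and 533 CPM in capmatinib-treated sgP53. It was lower with capmatinib in NF1-MET (log2 fold change -0.14, adjusted p = 7.48e-07 in edgeR) and not called in sgP53.

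The lower part of the pathway, from GAPDH to pyruvate kinase, held the 2 genes of the set highest per kilobase of principal transcript. These were *Pkm* and *Gapdh*, and both were lower with capmatinib. In CPM, *Ldha* lay between them in NF1-MET with vehicle. *Pkm*, encoding muscle pyruvate kinase (ENSMUSG00000032294, mm10 chromosome 9, 59656368 to 59679375, 11 exons), fell from 2114 and 2089.9 CPM with vehicle to 1361 and 1367 CPM with capmatinib in NF1-MET, and from 1887 and 1901 CPM to 1489 and 1483 CPM in sgP53. Every capmatinib library was far below every vehicle library, and those of NF1-MET were the lowest. The fall was 1.56-fold in NF1-MET (log2 fold change -0.64, SE 0.017, edgeR adjusted p = 1.93e-25) and 1.27-fold in sgP53 (log2 fold change -0.35, SE 0.0198, edgeR adjusted p = 4.85e-13). *Pkm* shares 767 exon bases with *Gm49759* on the same strand, which held 9950 counts against 502602 for *Pkm*.

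*Gapdh*, which oxidises the triose phosphate, was at 973 and 978 CPM in vehicle-treated NF1-MET, 840.1 and 825 CPM in capmatinib-treated NF1-MET, 988 and 960.5 CPM in vehicle-treated sgP53 and 889 and 899.6 CPM in capmatinib-treated sgP53. *Eno1*, the main enolase, was at 729 and 738 CPM in vehicle-treated NF1-MET, 642 and 661 CPM in capmatinib-treated NF1-MET, 783 and 769 CPM in vehicle-treated sgP53 and 725 and 728 CPM in capmatinib-treated sgP53. Both were lower with capmatinib in both lines without overlap, with log2 fold changes of -0.25 in NF1-MET and -0.12 in sgP53 for *Gapdh*, and of -0.19 and -0.10 for *Eno1*. The *Eno1* call in sgP53 was lost with library totals (-0.22). The *Gapdh* value may be shared with 41 near-identical annotated copies that held 11.0% as many counts as *Gapdh* itself. *Pgk1*, which recovers the first ATP, was at 204 and 203 CPM in vehicle-treated NF1-MET, 177 and 175 CPM in capmatinib-treated NF1-MET, 207 and 199 CPM in vehicle-treated sgP53 and 199 and 199.6 CPM in capmatinib-treated sgP53. *Pgam1*, the phosphoglycerate mutase, was at 66.6 and 68.3 CPM in vehicle-treated NF1-MET, 54.1 and 54.7 CPM in capmatinib-treated NF1-MET, 69.1 and 68.2 CPM in vehicle-treated sgP53 and 58.8 and 59.6 CPM in capmatinib-treated sgP53. *Pgam1* fell in both lines (-0.33 and -0.21), whereas *Pgk1* was called lower in NF1-MET only (-0.22, against -0.03 in sgP53).

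Against these falls, the minor enolases and *Bpgm* rose. *Eno3*, the muscle enolase, rose from 86.2 and 86.1 CPM with vehicle to 137 and 136 CPM with capmatinib in NF1-MET, and from 89.3 and 85.2 CPM to 119.7 and 121 CPM in sgP53. The groups were well apart, with log2 fold changes of 0.65 in NF1-MET (SE 0.0292, edgeR adjusted p = 3.53e-19) and 0.46 in sgP53. *Eno2*, the neuronal enolase, rose from 15.1 and 13.7 CPM with vehicle to 18.7 and 17.9 CPM with capmatinib in NF1-MET, and from 9.43 and 10.8 CPM to 15.8 and 15.8 CPM in sgP53. The rise was larger than the replicate spread in both lines and passed 0.5 in sgP53 (log2 fold change 0.63, SE 0.0821, edgeR adjusted p = 4.81e-07). The *Eno2* call in NF1-MET was lost with library totals (0.15). *Bpgm*, whose product diverts the pathway to bisphosphoglycerate (ENSMUSG00000038871, mm10 chromosome 6, 34476207 to 34505613, 3 exons), rose from 65.3 and 61.6 CPM with vehicle to 128 and 121 CPM with capmatinib in NF1-MET, and from 49.1 and 45.1 CPM to 90.2 and 88.7 CPM in sgP53. Its level was about doubled in each line, by 1.93-fold in NF1-MET (log2 fold change 0.95, SE 0.0342, edgeR adjusted p = 7.98e-22) and 1.90-fold in sgP53 (log2 fold change 0.93, SE 0.0383, edgeR adjusted p = 2.06e-15), and was higher in NF1-MET than in sgP53 under either treatment.

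Lactate dehydrogenase interconverts pyruvate and lactate. *Ldha*, the form that favours lactate production, was at 1151 and 1135 CPM in vehicle-treated NF1-MET, 993 and 979 CPM in capmatinib-treated NF1-MET, 1197 and 1169 CPM in vehicle-treated sgP53 and 1060.0 and 1068 CPM in capmatinib-treated sgP53. It was lower with capmatinib in both lines without overlap, with log2 fold changes of -0.23 in NF1-MET and -0.15 in sgP53. *Ldhb*, the heart form that favours pyruvate (ENSMUSG00000030246, mm10 chromosome 6, 142490249 to 142507957, 8 exons), rose from 1.79 and 1.98 CPM with vehicle to 6.18 and 7.37 CPM with capmatinib in NF1-MET, and from 2.53 and 3.16 CPM to 7.32 and 8.30 CPM in sgP53. The rise was 3.58-fold in NF1-MET (log2 fold change 1.84, SE 0.147, edgeR adjusted p = 8.46e-13) and 2.72-fold in sgP53 (log2 fold change 1.44, SE 0.128, edgeR adjusted p = 1.32e-09). It remained a minor form, since per kilobase of principal transcript *Ldhb* made up 0.210% and 0.236% of lactate dehydrogenase transcript in NF1-MET with vehicle and 0.836% and 1.01% with capmatinib.

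The 4 pyruvate dehydrogenase kinases, which inactivate pyruvate dehydrogenase and so spare pyruvate from oxidation, were all higher with capmatinib in both lines. *Pdk2* (ENSMUSG00000038967, mm10 chromosome 11, 95026258 to 95041354, 11 exons) rose from 2.81 and 1.98 CPM with vehicle to 9.14 and 9.95 CPM with capmatinib in NF1-MET, and from 2.65 and 2.32 CPM to 10.1 and 9.54 CPM in sgP53. *Pdk4*, the starvation-induced form (ENSMUSG00000019577, mm10 chromosome 6, 5483351 to 5496309, 11 exons), rose from 4.38 and 3.76 CPM with vehicle to 9.22 and 8.17 CPM with capmatinib in NF1-MET, and from 3.23 and 4.05 CPM to 9.82 and 10.2 CPM in sgP53. All capmatinib libraries of both genes were above all vehicle libraries. *Pdk2* rose 3.98-fold in NF1-MET (log2 fold change 1.99, SE 0.133, edgeR adjusted p = 8.96e-15) and 3.97-fold in sgP53 (log2 fold change 1.99, SE 0.117, edgeR adjusted p = 1.04e-12). *Pdk4* rose 2.10-fold in NF1-MET (log2 fold change 1.07, SE 0.116, edgeR adjusted p = 9.20e-10) and 2.73-fold in sgP53 (log2 fold change 1.45, SE 0.112, edgeR adjusted p = 1.28e-10). The abundant kinases moved less. *Pdk1*, a target of the hypoxia-inducible factors, rose from 73.0 and 72.6 CPM with vehicle to 103 and 107 CPM with capmatinib in NF1-MET, and from 73.2 and 74.2 CPM to 113 and 114 CPM in sgP53. *Pdk3* rose from 30.7 and 29.9 CPM with vehicle to 41.4 and 37.7 CPM with capmatinib in NF1-MET, and from 34.0 and 33.3 CPM to 44.5 and 44.0 CPM in sgP53. Neither gene's groups overlapped, and *Pdk1* passed 0.5 in both lines (log2 fold change 0.51, SE 0.0318, edgeR adjusted p = 1.72e-15 in NF1-MET, and log2 fold change 0.62, SE 0.0346, edgeR adjusted p = 3.82e-13 in sgP53), while *Pdk3* stayed at 0.36 and 0.40. The 8 kinase calls held under every alternative run, library totals included. *Pdha1*, the catalytic subunit that these kinases phosphorylate, was at 236 and 230.4 CPM in vehicle-treated NF1-MET, 279.5 and 275 CPM in capmatinib-treated NF1-MET, 242 and 238 CPM in vehicle-treated sgP53 and 289 and 294 CPM in capmatinib-treated sgP53. It was also higher with capmatinib, by 0.23 and 0.28, calls that were lost with library totals (0.05 and 0.16).

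**Figure D3:**
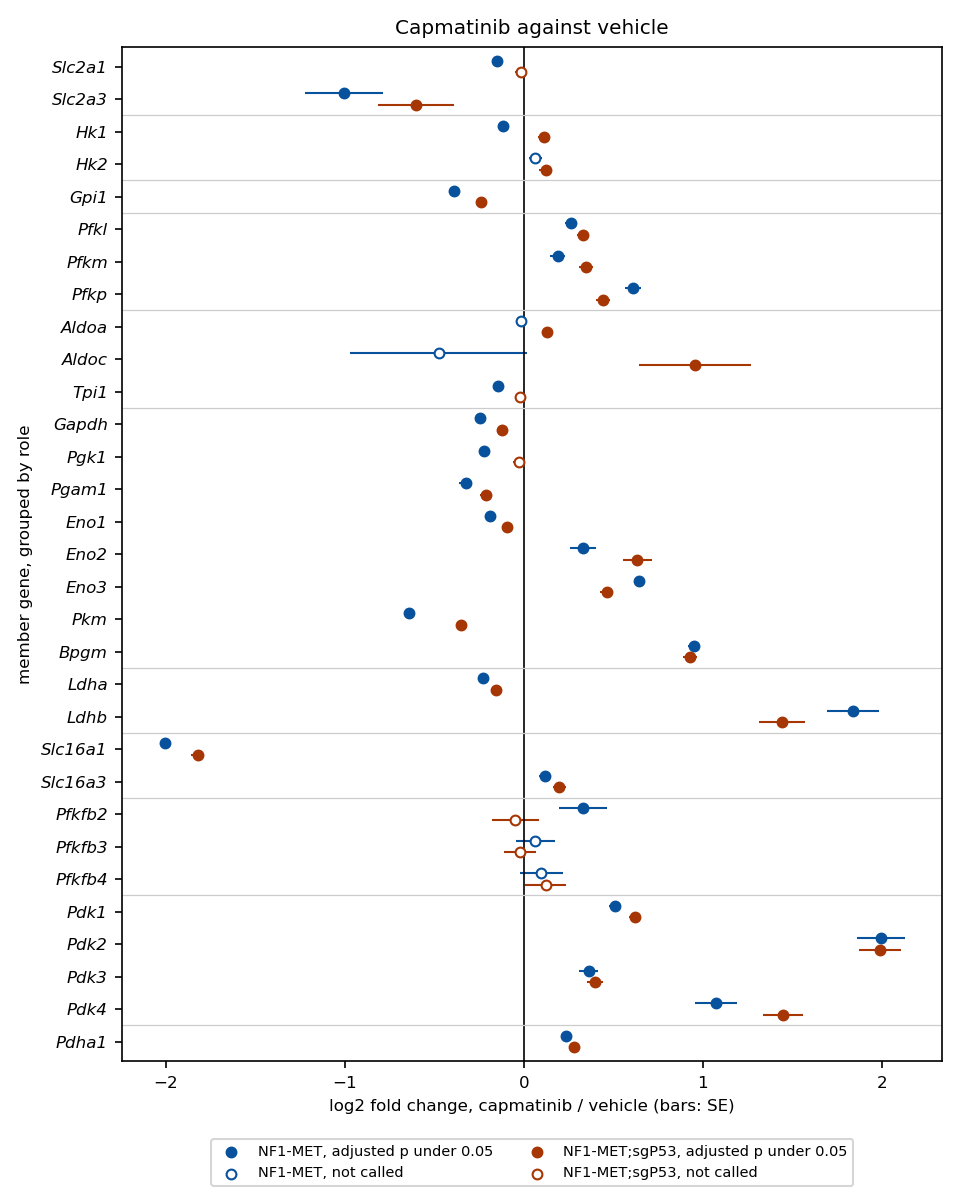
Log2 fold change of capmatinib against vehicle (x axis) with its SE (bars) for the 31 genes (y axis) in NF1-MET (blue) and sgP53 (red), filled where the adjusted p was under 0.05. *Slc16a1* lies near -2 and *Pdk2* near 2 in both lines, while most lower pathway enzymes lie a little below 0, and farther below in NF1-MET.

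Compared per kilobase of principal transcript, *Pkm* was the most abundant gene of the set in NF1-MET with vehicle (864 ± 6.93 CPM per kb, SD, n = 2), followed by *Gapdh* (687 ± 2.78), *Ldha* (647 ± 6.53), *Aldoa* (619 ± 0.479), *Eno1* (362 ± 2.86), *Tpi1* (316 ± 3.87), *Gpi1* (146 ± 2.84) and *Pgk1* (111 ± 0.764). Transporters, hexokinases and phosphofructokinase subunits were lower, *Slc16a1* at 43.1, *Hk1* at 42.1, *Pfkl* at 40.3 and *Slc2a1* at 38.6 CPM per kb. In this range *Slc2a1* and *Pgam1* (38.0 ± 0.653) did not differ beyond their spread, and neither did *Ldhb* (1.45 ± 0.103), *Pfkfb4* (1.41) and *Pfkfb3* (1.39 ± 0.0283). *Slc2a3* (0.596) and *Aldoc* (0.127) were the lowest. This order depends on the transcript length used, which for *Gapdh* is 1420 bases, against 4133 bases for all its exons combined.

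Within families the makeup moved with capmatinib, as the plot of family shares shows. *Eno3* made up 13.1% and 13.0% of enolase transcript in NF1-MET with vehicle and 21.3% and 20.7% with capmatinib, and 12.8% and 12.4% against 17.4% and 17.5% in sgP53. *Pdk2* made up 2.93% to 4.03% of kinase transcript in the vehicle libraries and 8.49% to 9.81% in the capmatinib libraries. *Hk1* stayed between 77.0% and 79.8% of hexokinase transcript, and *Pfkl* between 60.5% and 65.4% of phosphofructokinase transcript, in all 8 libraries. These shares are over the genes of the set alone and depend on the transcript length used. With the length of all exons of a gene combined, *Eno3* made up 26.3% and 26.1% with vehicle and 39.0% and 38.1% with capmatinib in NF1-MET, while the direction of each shift was the same.

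**Figure D4:**
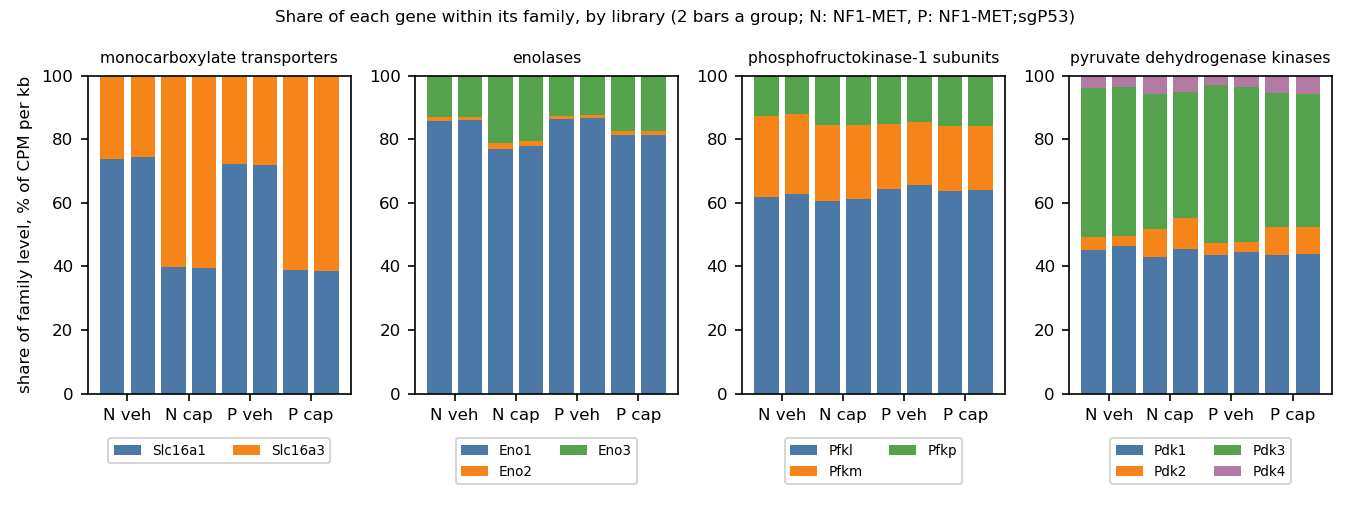
Share of each gene in the summed CPM per kb of its family (y axis, %) in each of the 8 libraries (2 bars a group; N, NF1-MET; P, sgP53). *Slc16a1* drops from over 70% of the summed *Slc16a1* and *Slc16a3* transcript with vehicle to under 40% with capmatinib, while the phosphofructokinase makeup changes little.

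The sgP53 cells were then compared with NF1-MET cells under the same treatment. This compares 2 lines, in which loss of p53 cannot be told apart from vector and clonal differences. These comparisons use the same libraries as the capmatinib comparisons and are not independent of them. With vehicle, 6 of the 31 genes were higher in sgP53, 4 were lower and 21 were not called (32.3% called), against 23.2% of all genes, 10.9% higher and 12.3% lower. The median log2 fold change was 0.02. The largest called differences were those of *Ldhb* (log2 fold change 0.58, SE 0.185, edgeR adjusted p = 0.0271), *Eno2* (log2 fold change -0.52, SE 0.0844, edgeR adjusted p = 1.07e-04) and *Pfkfb3* (log2 fold change 0.49, SE 0.0938, edgeR adjusted p = 5.14e-04). *Bpgm* was lower (log2 fold change -0.45, SE 0.0431, edgeR adjusted p = 1.14e-07), *Pfkp* higher (log2 fold change 0.34, SE 0.0446, edgeR adjusted p = 7.99e-06) and *Pfkm* lower (log2 fold change -0.24, SE 0.0415, edgeR adjusted p = 1.89e-04) in sgP53. *Pfkl*, *Slc16a3*, *Eno1* (0.14, 0.12 and 0.06) and *Pkm* (-0.17) made up the rest. *Slc16a1*, *Slc2a1*, *Ldha*, *Gapdh* and all 4 pyruvate dehydrogenase kinases were not called with vehicle. *Pdk3* (0.13) was called higher in 4 alternative fits, at 0.13 with the bias-adjusted quasi-likelihood test and with the replicate block, 0.15 with all 8 libraries in 1 model and 0.16 with library totals without *Gm42418*. The last 3 of these fits called *Hk2* and *Tpi1* higher too. *Hk2* (0.09) was also called without *Gm42418* and with at least 10 counts in 7 libraries. All 8 libraries in 1 model, and library totals without *Gm42418*, each gave 9 higher and 4 lower. Of all genes they gave 2046 and 2065 higher and 1533 and 1459 lower. The count of higher genes dropped from 6 to 3 without NF1-MET vehicle replicate 1 or replicate 2, where *Ldhb* (0.51 and 0.66) and *Eno1* lost their calls. *Ldhb* also lost its call without sgP53 vehicle replicate 2 (0.40) and in DESeq2. With library totals, *Pkm* (-0.11), *Pfkm* (-0.18), *Slc16a3* (0.18) and *Eno1* (0.12) were not called. *Slc16a3* also lost its call in DESeq2 and without NF1-MET or sgP53 vehicle replicate 2 (0.10 and 0.09). *Pfkl* lost its call without NF1-MET vehicle replicate 1 (0.11).

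With capmatinib, the same comparison gave 19 genes higher in sgP53, 3 lower and 9 not called (71% called), against 12.3% of all genes, 5.94% higher and 6.34% lower. The median log2 fold change of the 31 genes was 0.15, and that of all genes was -0.0010. Of the 13 genes with at least 100 CPM in NF1-MET with vehicle, 11 were higher and the other 2 were not called. Small differences are more easily called at high counts, and the share called among all genes at that level was not computed. The differences were small. Apart from *Aldoc*, the called rises lay between 0.10 (*Gapdh*) and 0.41 (*Pfkfb3*) on the log2 scale, with *Tpi1* at 0.18, *Pgk1* at 0.18, *Aldoa* at 0.17, *Eno1* at 0.16, *Hk2* at 0.16, *Hk1* at 0.15, *Pkm* at 0.12, *Pgam1* at 0.12, *Gpi1* at 0.12 and *Ldha* at 0.11. *Slc16a1* (0.15), *Pfkp* (0.18), *Pdk1* (0.12) and *Pdk3* (0.17) were also higher. Among the largest, *Aldoc* (log2 fold change 2.28, SE 0.387, edgeR adjusted p = 5.51e-04), *Pfkfb3* (log2 fold change 0.41, SE 0.103, edgeR adjusted p = 0.0122), *Pfkl* (log2 fold change 0.21, SE 0.0292, edgeR adjusted p = 6.30e-05) and *Slc16a3* (log2 fold change 0.21, SE 0.0314, edgeR adjusted p = 1.70e-04) were higher in sgP53. *Bpgm* (log2 fold change -0.47, SE 0.033, edgeR adjusted p = 1.95e-08) and *Eno2* (log2 fold change -0.21, SE 0.065, edgeR adjusted p = 0.0421) were lower, as was *Eno3* (log2 fold change -0.18, adjusted p = 5.59e-04 in edgeR). The *Eno2* call was lost whichever library was left out (adjusted p 0.0661 to 0.168), in DESeq2, without the filter on low counts, with all 8 libraries in 1 model and with both scalings to totals.

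This count depended on how libraries were scaled. Scaled to library totals, 4 genes were higher (*Pfkl*, *Aldoc*, *Slc16a3* and *Pfkfb3*) and 1 was lower (*Bpgm*), with the median of the 31 genes at 0.26 and that of all genes at 0.11, so the distance between the medians was near that of the TMM fit. Scaled to library totals without *Gm42418*, 19 were higher and 2 lower, and the median of all genes was 0.01. DESeq2 called 12 higher and 2 lower. Of the 19 genes, 13 were called higher whichever single library was left out, and the 6 others were *Hk2*, *Pgam1*, *Slc16a1*, *Pfkfb3*, *Pdk1* and *Pdk3*. The same scaling to library totals moved the capmatinib counts to 8 higher and 13 lower in NF1-MET, where the median of all genes went to -0.18, and to 10 higher and 7 lower in sgP53, where it went to -0.12. Over all genes, TMM gave 5140 higher and 5029 lower in NF1-MET and 4963 higher and 4841 lower in sgP53, and library totals gave 3508 higher and 6381 lower in NF1-MET and 3260 higher and 4933 lower in sgP53. Between the lines, TMM gave 1580 higher and 1775 lower of all genes with vehicle and 860 higher and 918 lower with capmatinib, and library totals gave 1280 and 743 with vehicle and 537 and 129 with capmatinib. For the 31 genes, library totals without *Gm42418* gave 11 higher and 13 lower in NF1-MET and 13 higher and 11 lower in sgP53. Over all genes it gave 4280 higher and 6040 lower in NF1-MET and 4038 higher and 6018 lower in sgP53.

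**Figure D5:**
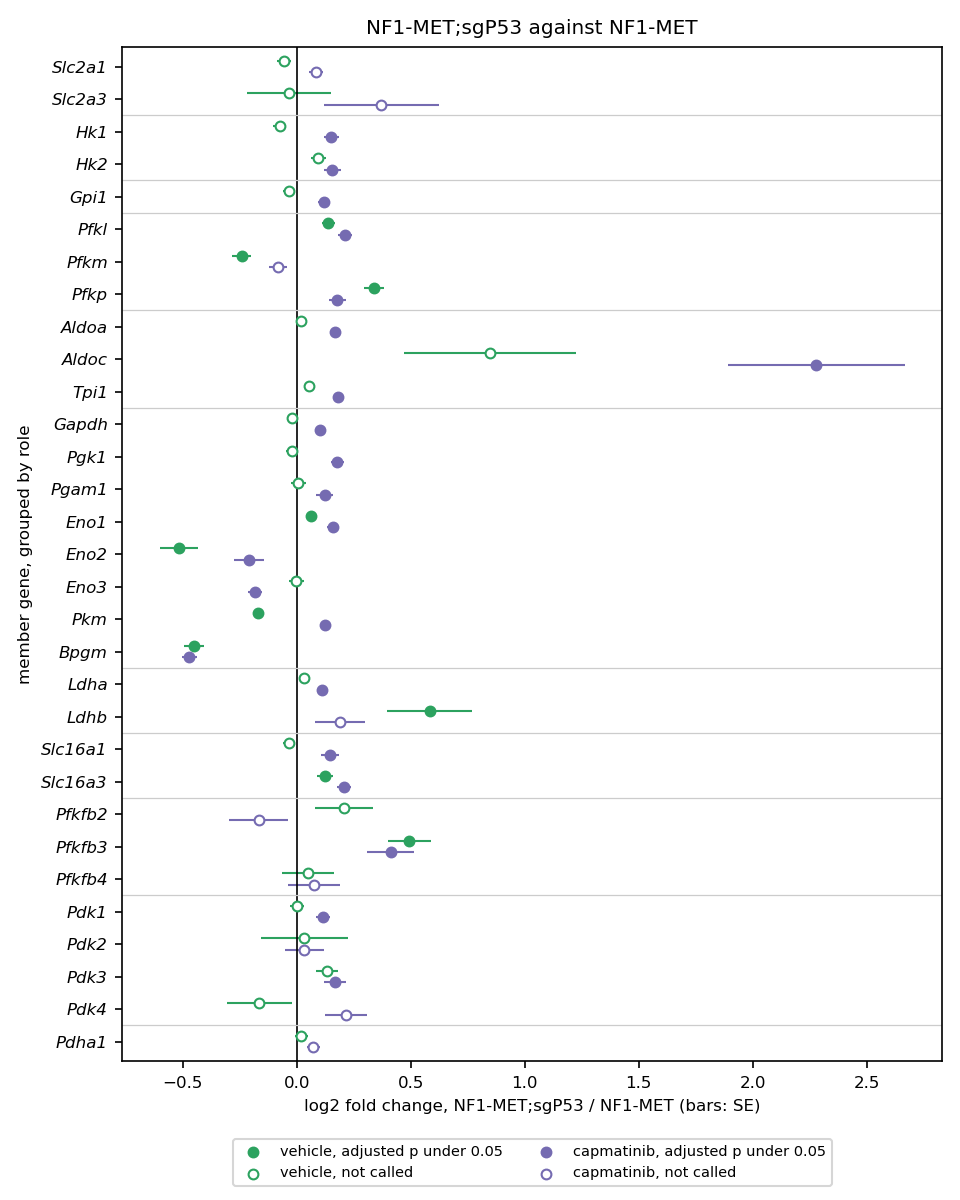
Log2 fold change of sgP53 against NF1-MET (x axis) with its SE (bars) for the 31 genes (y axis) with vehicle (green) and with capmatinib (purple), filled where the adjusted p was under 0.05. The purple points lie to the right of 0 for 19 called genes, while most green points are open and near 0.

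Whether the capmatinib response differed between the lines was tested with the interaction over all 8 libraries. A positive value means that the log2 response was higher in sgP53. The interaction was positive for 8 of the 31 genes, negative for 2 and not called for 21 (32.3% called), against 9.71% of all genes, 3.85% positive and 5.86% negative. The median was 0.10 over the 31 genes and -0.03 over all genes. The balance over all genes depended on *Gm42418*. With it there were 558 positive and 849 negative interactions, and without it 873 positive and 612 negative, with the median of all genes at 0.01 and 11 positive and 1 negative among the 31. Without sgP53 capmatinib replicate 2 all genes gave 713 positive and 509 negative, and the 31 genes 9 and 1. All 8 positive genes were among the 13 with at least 100 CPM in NF1-MET with vehicle. Of them, 7 had fallen with capmatinib in NF1-MET, and *Aldoa* was not called there. High counts make small differences easier to call, and interactions that were not called reached 1.414 in absolute value. *Pkm* had the largest called value (log2 fold change 0.27, SE 0.0249, edgeR adjusted p = 3.25e-08), and its capmatinib level was 1361 and 1367 CPM in NF1-MET and 1489 and 1483 CPM in sgP53. *Hk1* followed (log2 fold change 0.21, SE 0.0432, edgeR adjusted p = 0.00209). The other positive genes were *Pgk1* (0.18), *Slc16a1* (0.16), *Gpi1* (0.13), *Aldoa* (0.13), *Tpi1* (0.11) and *Gapdh* (0.10). *Eno3* (-0.20) and *Pfkp* (-0.18) rose less in sgP53. *Ldhb*, *Bpgm*, the 4 kinases and *Slc16a3* had no called interaction. *Eno3* kept its call and *Pfkp* lost it whichever library was left out, and of the positive genes only *Pkm*, *Hk1*, *Pgk1* and *Aldoa* kept theirs throughout. With library totals edgeR called 0 of the 31 interactions, with 7 at an unadjusted p under 0.05, and *Pkm* was at 0.35 with an adjusted p of 0.0517. DESeq2, with its own size factors, called 8 positive, *Pkm* among them, and 1 negative.

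Other genes of glucose metabolism were counted from lists of neighbouring pathways, to be read against the shares of all genes called higher (35.5% and 34.2%) and lower (34.7% and 33.4%) with capmatinib. Where 2 log2 fold changes are given for a gene, the first is for NF1-MET. Of 16 measured isoforms and transporters outside the set, 9 were higher and 1 lower with capmatinib in NF1-MET, and 8 were higher and 1 lower in sgP53. *Slc16a7*, encoding the pyruvate transporter MCT2, rose by 2.72 on the log2 scale in sgP53, and *Slc2a13*, a myo-inositol transporter, by 1.83 and 1.90. *Emb*, encoding embigin, a partner that carries monocarboxylate transporters to the membrane, rose by 1.19 and 0.76, and *Slc2a6* by 1.33 in NF1-MET. Of 10 genes for pyruvate entry into mitochondria, 4 were higher and 6 lower in NF1-MET, and 4 were higher and 4 lower in sgP53. The list's median log2 fold change was -0.13 and -0.09. The lower genes, among them *Pdhb* of the pyruvate dehydrogenase complex (-0.39 and -0.24), lay between -0.39 and -0.12 in NF1-MET and between -0.30 and -0.18 in sgP53, and *Pdhb* was chosen after its values were seen. The higher ones included both subunits of the mitochondrial pyruvate carrier, *Mpc1* (0.49 and 0.45) and *Mpc2* (0.65 and 0.55), and pyruvate carboxylase, *Pcx* (1.14 and 1.23).

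The pentose phosphate pathway, which leaves glycolysis at glucose phosphate, had 8 measured genes, of which 1 was higher and 4 lower in NF1-MET, and 2 were higher and 6 lower in sgP53. *Pgd* (-0.60 and -0.46) and *Rpia* (-0.72 and -0.996) fell, while *H6pd*, the form of the endoplasmic reticulum, rose by 1.08 and 0.76. Of 14 genes of glycogen and glycerol metabolism, 8 were higher and 4 lower in each line, with *Pgm2l1* at -1.74 and -1.24, *Ugp2* at 1.02 and 0.85, *Gys1*, glycogen synthase, at 0.88 in sgP53, and *Pgm2* at -0.88 in NF1-MET. Of 3 measured gluconeogenic genes, *Pck2* rose by 1.17 and 0.97 and *G6pc3*, a glucose phosphatase subunit, fell (-0.23 and -0.21).

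Regulators and known target genes of the pathway were listed as well. Of 22 measured hypoxia-response genes, 15 were higher and 4 lower with capmatinib in NF1-MET, and 17 were higher and 4 lower in sgP53. *Adm* rose by 3.29 and 2.82 and *Ddit4* by 2.09 and 2.38, whereas *Car12*, a carbonic anhydrase, fell (-3.27 and -3.04). Of 7 measured genes around MYC and its glucose-responsive relatives, 4 were higher and 2 lower in NF1-MET, and 3 were higher and 2 lower in sgP53. *Txnip*, an arrestin that restrains glucose uptake, rose by 4.14 and 3.38, its relative *Arrdc4* by 3.0 in sgP53, and *Mycl* by 0.70 and 0.39, while *Mlx* fell in NF1-MET (-0.28). Of 11 p53-linked metabolic genes, 5 were higher and 3 lower in NF1-MET, and 5 were higher and 5 lower in sgP53, with a median log2 fold change of -0.12 and -0.21. *Rrad* (1.39 and 1.11) and *Sesn2* (0.93 and 1.09) rose in both lines.

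The same lists were counted between the lines, where 10.9% of all genes were higher and 12.3% lower in sgP53 with vehicle, and 5.94% higher and 6.34% lower with capmatinib. Hypoxia-response genes had 4 higher and 6 lower of 22 in sgP53 with vehicle, and 8 higher and 2 lower with capmatinib. Of the 16 other isoforms and transporters, 3 were higher and 1 lower with vehicle, and 3 higher and 2 lower with capmatinib. Of the 14 genes of glycogen and glycerol metabolism, 4 were higher and 3 lower with vehicle, and 3 higher and 1 lower with capmatinib. The pentose phosphate pathway had 3 higher and 1 lower of 8 with vehicle and 2 higher with capmatinib, and the genes around MYC had 3 higher of 7 with vehicle and 2 higher and 1 lower with capmatinib. Of the 11 p53-linked genes, 2 were higher and 1 lower with vehicle and 1 was lower with capmatinib. Of the 10 genes for pyruvate entry, 1 was lower with vehicle, and edgeR called 0 with capmatinib, where 1 had an unadjusted p under 0.05. Among the 3 gluconeogenic genes 1 was higher with vehicle, and edgeR called 0 with capmatinib, where 0 had an unadjusted p under 0.05. The interaction was positive for 3.85% and negative for 5.86% of all genes. It was positive for 9 and negative for 1 of the hypoxia-response genes, and negative for 3 and positive for none of the 7 genes around MYC. It was positive for 1 and negative for 1 of the other isoforms and transporters, positive for 1 and negative for 2 of the genes of glycogen and glycerol metabolism, and negative for 1 each of the pentose phosphate and gluconeogenic genes. For the p53-linked genes and those for pyruvate entry edgeR called 0, where 3 and 2 had an unadjusted p under 0.05.

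*Emb* was higher in sgP53 under both treatments (log2 fold change 1.80, SE 0.118, edgeR adjusted p = 4.51e-10 with vehicle, and log2 fold change 1.38, SE 0.0735, edgeR adjusted p = 6.55e-10 with capmatinib). Among the 8 measured Schwann and neural crest markers, 3 were higher and 2 lower with capmatinib in NF1-MET, against 35.5% and 34.7% of all genes. In sgP53, 2 were higher and 3 lower, against 34.2% and 33.4%. The higher *Tfap2a* was at 0.19 and 0.44. Among the lower ones, *Sox9*, a neural crest factor, was at -2.02 and -1.45 and *Gap43* at -2.72 and -2.52. Between the lines, 2 markers were higher and 3 lower in sgP53 with vehicle, against 10.9% and 12.3% of all genes. With capmatinib edgeR called 0, where 3 had an unadjusted p under 0.05. The interaction was positive for 2 of the 8 markers and negative for 0, against 3.85% and 5.86% of all genes. The part of these markers in the changes of glycolysis genes was not tested.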

How the data were processed

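Poly(A) RNA of 8 libraries was sequenced by the authors. The submitters' processing notes name bcl2fastq 1.9.0, Trim Galore 0.4.2, FastQC 0.11.7, STAR 2.5.2b and the mm10 build. The deposited table holds raw counts per gene from STAR, as whole numbers without normalization, and the annotation release and strand setting are not given in the sources used here. Every value column belonged to a library. Genes without a symbol held 0.00729% of counts.

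Genes that had 10 or more counts in 2 or more libraries, and counts above 0 in 2 or more libraries of a comparison, were tested in R 4.3.3 with edgeR 4.0.16 (quasi-likelihood test, legacy setting, TMM factors within the comparison, Benjamini-Hochberg adjustment over all genes, threshold 0.05). Standard errors came from the log2 fold change and F statistic. There were 5 comparisons, each fitted on its own libraries. Library totals were 30.1 to 42.8 M counts, and the biological coefficient of variation was 2.34% to 4.28%. Replicates differed by more than sampling noise. The fitting code was run on simulated data with known changes, which does not test the scaling between libraries. Alternatives were DESeq2 1.42.0 (size factors, and its Wald test), library totals, omission of *Gm42418*, edgeR's bias-adjusted test, other filters, all libraries in 1 model, a replicate block and each library left out. Library totals without *Gm42418*, and shares with the length of all exons, were added after seeing the data.

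The 31 genes and the other lists were chosen with earlier results of these data known. Every one of the 31 is named with its level in each library, with fold changes, SE and adjusted p for called genes at 0.5 or more on the log2 scale with capmatinib and, for the lines and the interaction, for called genes among the 8 largest. From the other lists, up to 3 called genes with the largest changes and at least 5 CPM are named. Positions and lengths came from GENCODE M21, in which 99.56% of identifiers were found, near-identical copies from BLAST 2.17.0, and promoters from RefSeq (Python 3.11.15 and pandas 2.3.3, with figures in matplotlib 3.10.9). Protein sequences were not used here.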

Additional observations from a re-analysis of the deposited data

Results flagged for a closer look

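For 10 of the 31 genes the response to capmatinib differed between the lines by the interaction test (edgeR's quasi-likelihood test, Benjamini-Hochberg adjustment over 14497 genes), which called 9.71% of all genes. The log2 difference of responses, sgP53 minus NF1-MET, was 0.27 for *Pkm* (SE 0.0249), 0.21 for *Hk1*, 0.18 for *Pgk1*, 0.16 for *Slc16a1*, 0.13 for *Gpi1*, 0.13 for *Aldoa*, 0.11 for *Tpi1* and 0.10 for *Gapdh*. It was -0.20 for *Eno3* and -0.18 for *Pfkp*. *Hk1* was the only gene of the set that was called in opposite directions, at -0.11 in NF1-MET and 0.11 in sgP53, and its sgP53 value was -0.014 with library totals. *Hk1*, *Aldoa*, *Pgk1* and *Pkm* were called whichever library was left out, as was *Eno3*, whereas *Pfkp* lost its call in each case. Adjusted p-values of the 10 genes ran from 3.25e-08 (*Pkm*) to 0.0448 (*Tpi1*). With library totals none of the 10 was called by edgeR (7 of the 31 had an unadjusted p under 0.05), with adjusted p-values from 0.0517 to 0.861, and with library totals without *Gm42418* 8 positive and 1 negative calls were made among the 31. The cause of the differences was not tested.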

How the results depend on the processing

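Of 2262 recomputed values of the 31 genes over all alternatives, 2032 kept their direction and their side of the threshold, 139 lost a call and 26 gained one. Of the values called neither before nor after, 61 changed sign. Called values changed sign in 4 cases, which were *Slc16a3* in NF1-MET (-0.068 with library totals), *Hk1* in sgP53 (-0.014 with library totals and -0.012 with library totals without *Gm42418*) and *Hk2* in sgP53 (-0.0023 with library totals), all for capmatinib against vehicle. Library totals gave 8 higher with capmatinib in NF1-MET and 10 in sgP53, 2 lower and 2023 of all genes called between lines with vehicle, 4 higher, 1 lower and 666 of all genes between lines with capmatinib, and for the interaction 0 higher, 0 lower and 315 of all genes. DESeq2's Wald test gave 3 higher and 1933 of all genes with vehicle, 12 higher and 870 of all genes with capmatinib, and 1 lower and 894 of all genes for the interaction. Without a filter on low counts 1070 of all genes were called between lines with capmatinib. The interaction had 1 lower gene with DESeq2's size factors, without *Gm42418*, without the filter and with library totals without *Gm42418*. The causes were not tested.

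Leaving out 1 library at a time, capmatinib raised 13 genes and lowered 12 in NF1-MET and raised 14 to 17 and lowered 7 to 8 in sgP53. Between lines, 3 to 5 were higher and 4 lower with vehicle, and 15 to 18 higher and 2 lower with capmatinib. The interaction was positive for 4 to 9 and negative for 1, with 4 positive without NF1-MET vehicle replicate 1 and 5 without NF1-MET vehicle replicate 2, NF1-MET capmatinib replicate 2 or sgP53 vehicle replicate 1. All genes called ranged over 9192 to 9622, 9008 to 9333, 2367 to 2959, 1356 to 1740 and 970 to 1244, for capmatinib in NF1-MET and in sgP53, for the lines with vehicle and with capmatinib, and for the interaction. Where 1 library was left in a group, it was assumed to vary like the others.

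The labels do not say that replicate numbers mark a shared batch, and the correlation of same-numbered deviations lay between -0.08 and 0.22 over pairs of groups. With a replicate block the counts were 14 higher and 12 lower with capmatinib in NF1-MET, 17 and 8 in sgP53, 9 and 5 between lines with vehicle, 19 and 3 with capmatinib, and 8 and 2 for the interaction. Over all genes the block gave 10141, 9866, 3994, 1777 and 1524 calls in the same order. With vehicle these were 1905 higher and 2089 lower, against 3355 in all without the block. *Hk1*, *Hk2*, *Tpi1* and *Pdk3* gained calls with vehicle under the block, which changed no other call of the 31 genes. Depth limits the genes with few counts, such as *Aldoc* with 6 to 53 a library.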
